A study of Caenorhabditis elegans with 2 samples.

Results

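The peaks described here are 1394 regions of the C. elegans genome that both replicates of a ChIP-seq experiment on the Sp family protein SPTF-2 placed among their 5000 strongest, but that the submitters' optimal set left out. A shared peak is a peak of the pooled list that is not in the optimal list and that overlaps, by 1 bp or more, a peak among the 5000 of highest signal value in replicate 1 and also in replicate 2. The members were thus chosen by measured values, namely the signal value in each replicate list and membership of the pooled and optimal lists, so their signals, ranks and overlaps are given as a description without a test. They make up 1394 of the 30000 peaks of the pooled list. The optimal set holds 407 peaks and the rest of the pooled list 28199.

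The worms were strain OP769, which carries the allele unc-119(tm4063) and the insertion wgls769, in which sptf-2::TY1::EGFP::3xFLAG is joined with unc-119(+), so that SPTF-2 is made with a tag of eGFP and FLAG while unc-119(+) rescues the mutant. The animals were young adults of mixed sex, taken at 64.5 h after synchronisation by L1 starvation following bleaching, and chromatin was sonicated to fragments of 200 to 800 bp and pulled down with an antibody against GFP. There was 1 group with 2 samples that the labels number as biological replicates, without saying how the cultures were kept apart. The tagged protein comes from a transgene, whole worms mix all tissues, every list was made against a shared control, and peaks of an untagged strain were not used here. All p-values below take peaks as units, so they do not measure variation between worm populations, and all intervals are exact 95% intervals that cover counting error only. The sequencing depth is unknown.

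Sp proteins are transcription factors with zinc fingers that bind GC-rich promoter elements, the GC boxes, and their Krüppel-like relatives bind the similar CACC boxes. The irreproducible discovery rate, or IDR, on which the optimal set was thresholded, asks whether a peak holds a similar rank in both replicates. In these lists, however, the optimal set was pooled ranks 1 to 407, so every shared peak had a lower pooled signal than every optimal peak. Matched ranks of optimal peaks in replicate 2 ran to 21989. Transfer RNA genes, which appear throughout these data, are read by RNA polymerase III from promoter elements inside the gene, the A and B boxes.

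The following windows of 151 bp, centred on summits of shared peaks, are examples with a motif, chosen after their values were seen. They are read from the plus strand of the RefSeq sequence of WBcel235, the assembly also called ce11. Capitals mark matches, on either strand, to the GC box core GGGCGG or its complement CCGCCC, to the CACC box core CACCC or its complement GGGTG, to the GA repeat GAGAGA or its complement TCTCTC, and to the B box core GTTCGA or its complement TCGAAC. The tRNA-Glu window holds a B box inside the gene, the window just upstream of a tRNA-Arg gene holds a GA repeat, and the pkg-2 window lies in a coding exon. The others hold a GC box and are among the strongest shared peaks of their class. They lie at protein-coding starts, in an intron, outside protein-coding genes (labelled intergenic) and at a miRNA gene. These windows are not typical, because the GC box core lay within 100 bp of the summit in only 9.61% of shared peaks. In exon peaks, such as that of pkg-2, it was 4.73%.

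tRNA-Glu gene, X:7898288-7898438: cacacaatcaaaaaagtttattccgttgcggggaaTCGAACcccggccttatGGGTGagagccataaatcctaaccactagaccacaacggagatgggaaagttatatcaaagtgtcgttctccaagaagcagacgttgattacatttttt
tRNA-Arg upstream, IV:143843-143993: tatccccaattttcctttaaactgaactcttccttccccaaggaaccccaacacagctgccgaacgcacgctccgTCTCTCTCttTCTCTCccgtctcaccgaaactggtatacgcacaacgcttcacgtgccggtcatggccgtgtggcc
ltah-1.2 start, IV:3613385-3613535: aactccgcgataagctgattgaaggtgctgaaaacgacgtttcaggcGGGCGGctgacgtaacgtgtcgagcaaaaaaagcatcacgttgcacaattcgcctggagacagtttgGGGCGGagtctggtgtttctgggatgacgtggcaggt
ztf-29 start, III:11560593-11560743: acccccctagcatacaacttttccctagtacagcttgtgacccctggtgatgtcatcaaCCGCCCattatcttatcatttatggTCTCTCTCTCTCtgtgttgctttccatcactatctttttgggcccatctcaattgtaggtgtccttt
lea-1 intron, V:10019090-10019240: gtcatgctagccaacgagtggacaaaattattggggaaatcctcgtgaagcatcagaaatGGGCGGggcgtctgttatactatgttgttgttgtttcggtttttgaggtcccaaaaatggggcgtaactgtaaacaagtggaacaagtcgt
intergenic peak, III:10534311-10534461: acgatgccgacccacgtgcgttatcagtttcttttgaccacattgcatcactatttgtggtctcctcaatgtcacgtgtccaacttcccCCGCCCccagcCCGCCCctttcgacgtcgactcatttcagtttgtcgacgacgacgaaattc
mir-60 upstream, II:6328867-6329017: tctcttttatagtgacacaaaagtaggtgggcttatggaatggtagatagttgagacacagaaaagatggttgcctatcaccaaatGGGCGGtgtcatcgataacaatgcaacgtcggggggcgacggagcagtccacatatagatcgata
pkg-2 exon, IV:8536347-8536497: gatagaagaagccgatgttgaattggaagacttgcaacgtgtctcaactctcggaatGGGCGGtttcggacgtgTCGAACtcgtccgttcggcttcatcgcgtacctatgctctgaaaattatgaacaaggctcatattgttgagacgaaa

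The shared peaks formed a dense layer just under the optimal set with a long, thin tail. Their pooled ranks ran from 408 to 29944 with a median of 1580, and their signal values in the pooled list, a score in the peak caller's arbitrary units, ran from 27.9 to 90.4 with a median of 67.0. The optimal peaks had signals of 90.4 to 645 with a median of 107. At the boundary, the weakest optimal peak had a signal of 90.3891 at pooled rank 407 and the strongest shared peak 90.3821 at rank 408. The strongest pooled peak in neither group stood at rank 412 with 90.2291. Of the 593 pooled peaks between the optimal set and rank 1000, 424 (71.5%) were shared peaks, while 342 shared peaks lay beyond rank 5000.

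In the replicates, the peak matched to a shared peak had a median rank of 2039 in replicate 1 and 1845.5 in replicate 2. The threshold fell at a signal of 31.3157 for rank 5000 and 31.3155 for rank 5001 in replicate 1, and at 28.0173 and 28.0153 in replicate 2. Replicate 1 gave the better rank to 684 shared peaks and replicate 2 to 710, so neither replicate led throughout. The worse rank was a median of 2.08 times the better, against 2.61 times in the 405 optimal peaks that matched a peak in both replicates. The rule holds both ranks of a shared peak to 5000 and leaves those of optimal peaks free, so these ratios cannot be compared. Within the top 1000 of both replicates stood 112 shared peaks (8.03%) and 300 optimal peaks. Of the optimal peaks, 386 also overlapped the strongest 5000 of both replicates and 21 did not. The plot of replicate ranks shows these positions.

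**Figure D1:**
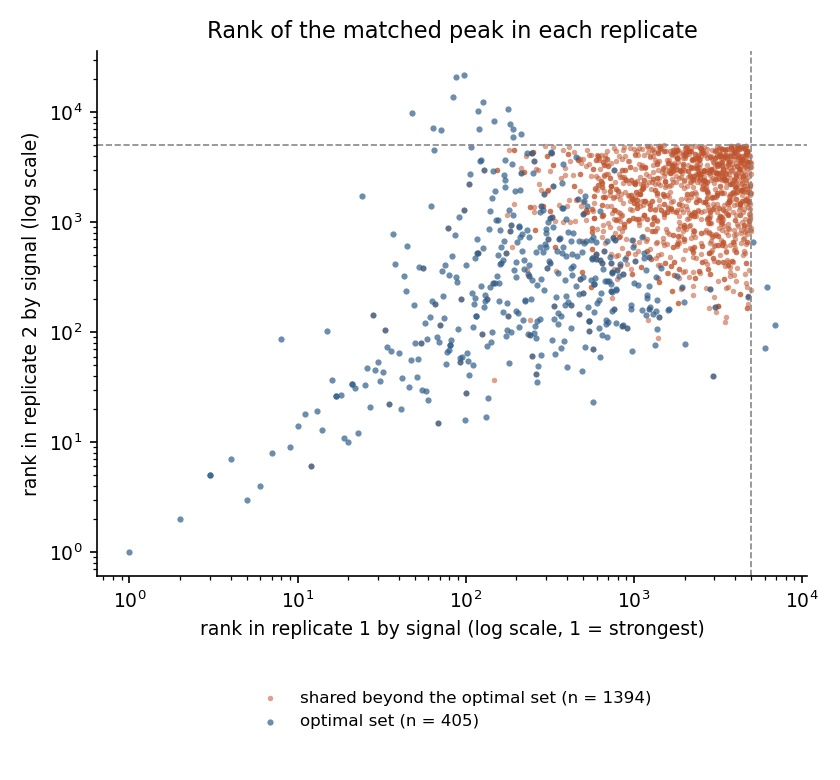
Each point is a peak of the pooled list, placed by the rank of its strongest overlapping peak in replicate 1 (horizontal) and replicate 2 (vertical), both on log scales with 1 the strongest; dashed lines mark rank 5000. The 1394 shared peaks fill the corner below rank 5000 in both, with medians of 2039 and 1845.5, while 21 of the 407 optimal peaks miss that corner (405 optimal peaks are drawn).

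Some of the shared peaks stood beside a stronger peak, while most did not overlap one. A stronger pooled peak overlapped 360 of the 1394 (25.8%), against 1975 of the 28199 other pooled peaks (7.0%). With 1 bp of overlap enough, a weak peak can enter through a stronger neighbour's replicate peak, so the rule favours such pairs. In 278 of the 360 (77.2%) the summits were 190 to 230 bp apart, and none was nearer than 199 bp, as the plot of spacing shows. Every shared peak was 376 bp wide. The overlapped peaks had a median pooled rank of 12946.5 and the remaining 1034 a median of 1176.5, and because an overlapping pair can match the same replicate peak, the replicate ranks of an overlapped peak may be those of its neighbour. In all, the 1394 shared peaks matched 1121 separate peaks of replicate 1 and merged into 1120 separate regions. An optimal peak overlapped 73 of them (5.24%), and 1147 (82.3%) lay more than 10000 bp from every optimal summit. For 71 shared peaks, the matched peaks in both replicates were also matches of optimal peaks, so those ranks are not theirs alone.

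The shared peaks whose matched replicate peaks ranked highest in both replicates mostly lay beside an optimal peak. Among the 26 that reached the top 407 of both replicates, a number of peaks chosen after seeing the data, 24 lay within 300 bp of an optimal summit. The weakest of these, beside the snoRNA gene ZK265.10, had a pooled rank of 28094, with its summit 202 bp from an optimal summit. Its matched replicate peaks, of ranks 12 and 6, were also those of the optimal peak at pooled rank 8. The other 2 stood alone. The peak at V:2068748-2069123 lay at a start of lbp-9, which encodes an intracellular lipid-binding protein, with a pooled signal of 90.2, a replicate 1 signal of 56.3 (rank 346) and a replicate 2 signal of 47.8 (rank 360). The peak at X:4147714-4148089, outside protein-coding genes, had a pooled signal of 68.4 and ranks of 241 and 129.

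**Figure D2:**
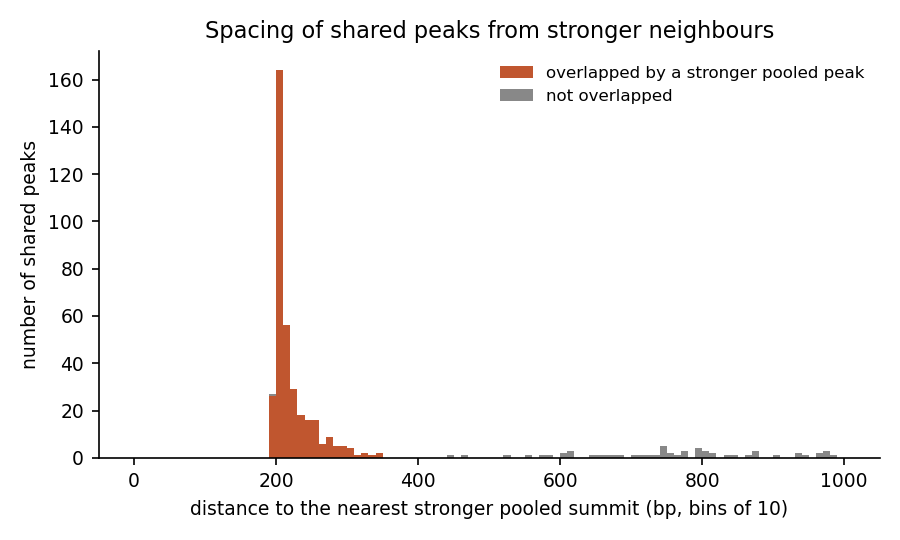
Number of shared peaks by distance from their summit to the nearest summit of higher pooled signal, in bins of 10 bp up to 1000 bp, with peaks that a stronger peak overlaps in orange. The overlapped peaks pile up just past 199 bp, with 278 of 360 between 190 and 230 bp.

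Away from the optimal set the balance of sites moved from small RNA genes to protein-coding exons and introns. Each summit was put in the first class that held it: within 500 bp of the start of a tRNA, snoRNA, snRNA or miRNA gene, then within 500 bp of a protein-coding start only, then in an exon or an intron of a protein-coding gene, then other. Small RNA genes of these 4 kinds took 12.9% of shared peaks (180 of 1394), 44.7% of optimal peaks and 2.07% of the rest. Exons took 24.2% of shared peaks (338 of 1394, interval 22 to 26.6) and 5.65% of optimal peaks (23 of 407, 3.62 to 8.36), a ratio of 4.29 (adjusted p = 1.28e-18 over 10 two-sided tests, Fisher's exact test). Introns took 12.6% (176) and 6.88% (28), a ratio of 1.84 (adjusted p = 0.00193, Fisher's exact test), which with only the 2500 strongest peaks of each replicate was 1.58 (adjusted p = 0.0994). In the rest of the pooled list exons took 28.2% and introns 20.6%, so the shared peaks stood between the optimal set and the rest.

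The share with only a protein-coding start nearby did not differ detectably, with 31.8% of shared peaks (443, interval 29.3 to 34.3) and 28.7% of optimal peaks (117, 24.4 to 33.4), a ratio of 1.11 (adjusted p = 0.304, Fisher's exact test), but in windows of 1000 bp the ratio was 1.32 (adjusted p = 4.39e-05). This class leaves out peaks that also lie at a small RNA gene. With these counted, a protein-coding start lay within 500 bp of 34.7% of shared peaks (484) and 40.3% of optimal peaks (164). That opposite direction was not tested. The remaining sites, called other, took 18.4% and 14%, a ratio of 1.32 (adjusted p = 0.0540, Fisher's exact test), which missed the threshold of 0.05 here and passed it under 8 of 11 alternatives, among them those without replicate 1 (1.38, adjusted p = 0.0104) and without replicate 2 (1.40, adjusted p = 0.00698). On the X chromosome lay 19.4% of shared peaks (271) and 24.3% of optimal peaks (99), a ratio of 0.799 (adjusted p = 0.0540, Fisher's exact test). Without the condition on replicate 1 it was 0.765 (adjusted p = 0.00829, Fisher's exact test) and without that on replicate 2 it was 0.817 (adjusted p = 0.0428). Outside the tRNA class the X chromosome held 17.3% of shared and 14.8% of optimal peaks, and within the tRNA class 43.8% and 52.4%.

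The class makeup also varied among the shared peaks themselves. Over 4 groups of nearly equal size by pooled rank, a split chosen after seeing the data, the tRNA share was 13.2%, 8.60%, 5.75% and 4.60% from the strongest to the weakest. The exon share was 18.1%, 23.5%, 25% and 30.5%. Intervals for the strongest and weakest group did not overlap for either class (tRNA 9.81 to 17.2 and 2.65 to 7.36, exon 14.2 to 22.5 and 25.7 to 35.6). The snoRNA share had no such course, with values between 2.87% and 3.45%. Most of the 360 peaks overlapped by a stronger pooled peak, with a median pooled rank of 12946.5, fell in the weakest group. Their summits lay at least 199 bp from the stronger summit, which can move them to another class. Without them, the tRNA share of all shared peaks was 8.51% and the exon share 23.2%. The 4 groups were not counted without them, so what they add to the course was not tested.

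**Figure D3:**
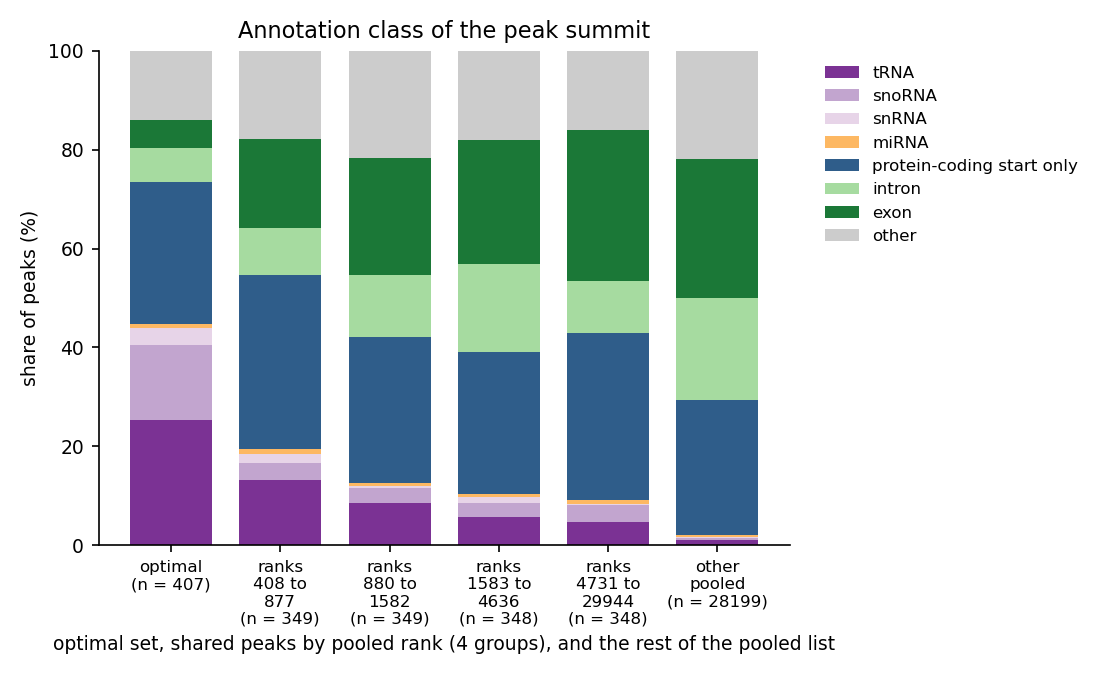
Stacked shares (%) of the annotation class of the summit in the optimal set, in 4 groups of shared peaks by pooled rank, and in the rest of the pooled list. The small RNA classes at the base shrink from 44.7% in the optimal set through 19.5% to 9.20% in the shared peaks and 2.07% in the rest, while the exon share grows from 5.65% to 30.5% in the weakest shared peaks. The weakest group holds most of the shared peaks that a stronger pooled peak overlaps.

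At the same pooled ranks, peaks that the replicates did and did not share had overlapping intervals for each share given with one here. From rank 408 to 1801 the pooled list held 768 shared peaks and 626 others, of which 255 (40.7%) lacked a match among the strongest 5000 of replicate 1 and 378 (60.4%) among those of replicate 2. The tRNA share was 10.2% (interval 8.11 to 12.5) in the shared peaks and 9.11% (6.97 to 11.6) in the others, and the exon share 21.4% (18.5 to 24.4) and 22% (18.9 to 25.5). The share with a protein-coding start only was 31.1% and 31.6%. A GC box core stood within 100 bp of the summit in 10.7% (8.58 to 13.1) and 8.63% (6.55 to 11.1). This comparison was chosen after seeing the data and was not tested.

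Among the small RNA genes, tRNA genes were the most frequent neighbours of shared peaks. The tRNA class held 112 shared peaks (8.03%, interval 6.66 to 9.59) and 103 optimal peaks (25.3%, 21.2 to 29.8), a ratio of 0.317 (adjusted p = 9.03e-18, Fisher's exact test), and 1.01% of the rest. Without the condition on replicate 1 the ratio was 0.127, and without that on replicate 2 it was 0.166. Counted by gene, 119 of 612 tRNA genes (19.4%) had a shared summit within 500 bp of the start, 122 an optimal summit, 16 both and 225 either (36.8%). Shared peaks thus added 103 genes to the 122. Reads from near-identical tRNA copies can be misplaced, so single genes are uncertain. The summits lay at or near the genes, with a median of 5.5 bp downstream of the start, 81 of 112 within 100 bp of it and 102 within 200 bp, against a median of 27 bp, 96 of 103 and 103 of 103 in the optimal set. Of the 112, 88 had no stronger overlapping pooled peak, and the summits of the overlapped ones lay at least 199 bp from a stronger summit.

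The strongest tRNA peak was at the tRNA-Glu gene WBGene00022957 (X:7898308-7898379), with a pooled signal of 90.2, a replicate 1 signal of 45.5 (rank 955) and a replicate 2 signal of 47.3 (rank 376). Next came the tRNA-Arg gene WBGene00023019 on chromosome IV, which lies within col-99, with a pooled signal of 89.7 and ranks of 1640 and 480. At the tRNA-Gln gene WBGene00022971 the replicates stood far apart, with rank 295 in replicate 1 and 4907 in replicate 2.

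By amino acid, a grouping chosen after seeing the data, the share of tRNA genes with a shared peak ran widely around the 19.4% of all tRNA genes. It was 7 of 13 for Cys, 11 of 27 for Asp and 14 of 46 for Lys, and none of 14 for Phe or of 12 for Trp. The Ala genes, of which 19 of 34 had an optimal peak, had a shared peak at only 4. With Cys, shared and optimal peaks together covered 12 of 13 genes. However, the Cys genes WBGene00023088, WBGene00023090 and WBGene00023091 lay at a single shared peak, of pooled rank 4604. That peak, and the peak of rank 7201 at the Cys gene WBGene00023155, were overlapped by a stronger pooled peak. These Cys genes also had an optimal peak, so the Cys share rests in part on neighbours of optimal peaks. On the X chromosome 54 of 276 tRNA genes (19.6%) had a shared peak and on the autosomes 65 of 336 (19.3%), while for optimal peaks these shares were 24.3% and 16.4%.

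Genes for small nucleolar RNAs, which direct modifications of ribosomal and other RNAs, and for small nuclear RNAs, which act in splicing, were also less frequent than in the optimal set. The snoRNA class held 44 shared peaks (3.16%) and 62 optimal peaks (15.2%), a ratio of 0.207 (adjusted p = 5.56e-16, Fisher's exact test), and the snRNA class 13 (0.933%) and 14 (3.44%), a ratio of 0.271 (adjusted p = 0.00193, same test), which with only the 2500 strongest peaks of each replicate was 0.490 (adjusted p = 0.153). Without the condition on replicate 1 the snoRNA and snRNA ratios were 0.0948 and 0.105, and without that on replicate 2 they were 0.103 and 0.142. By gene, 36 of 346 snoRNA and 13 of 129 snRNA genes had a shared peak, of which 6 and 5 also had an optimal peak. The strongest snoRNA peak was at T19C4.11, inside gpa-1, a G protein alpha subunit gene, with a pooled signal of 90.4 and ranks of 895 and 487. Others lay at F07A11.15 in din-1 (90.1, ranks 578 and 1081) and C14C10.8 in ril-2 (89.9, ranks 649 and 730). The snoRNA summits were less tightly placed than those of the optimal set, with 29 of 44 against 56 of 62 within 200 bp of the start. Only 27 of the 44 had no stronger overlapping pooled peak. The summits of the overlapped ones lay at least 199 bp from a stronger summit, so the difference in placement may come in part from them, which was not tested. The snRNA genes with a shared peak included 3 sls-2 genes, which encode the spliced leader SL2 that is joined to mRNAs from operons. Of these, sls-2.4 and sls-2.9 also had an optimal peak, the shared peak of sls-2.9 being classed at a tRNA gene. At sls-2.14 the pooled signal was 86.9 with ranks of 1903 and 752.

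At miRNA genes, the precursors of short RNAs that repress mRNAs, the shares did not differ detectably and the direction of the ratio was not stable to the alternatives below, with 11 shared peaks (0.789%, interval 0.395 to 1.41) and 3 optimal peaks (0.737%, 0.152 to 2.14), a ratio of 1.07 (adjusted p = 1, Fisher's exact test). By gene, 18 of 261 miRNA genes, several of them clustered, had a shared summit of any class within 500 bp of the start, against 3 genes for the optimal set, and 2 genes had both. A pair of overlapping shared peaks lay at the mir-35 cluster on chromosome II, whose miRNAs are needed in the embryo, and had summits within 500 bp of the starts of mir-35 to mir-41, with pooled signals of 50.8 and 50.5 and ranks of 4558 and 1576. A peak 206 bp upstream of mir-58a, an abundant miRNA, had a pooled signal of 54.6 and ranks of 4757 and 1870. Upstream of mir-60 the pooled signal was 79.6 with ranks of 1609 and 779, and its window is printed above for its GC box. The strongest miRNA peak was at mir-2214 (86.2, ranks 272 and 2234). A GC box core lay within 100 bp of the summit in 5 of the 11 (interval 16.7 to 76.6), beside 9.61% of all shared peaks. With so few windows the share is uncertain, and it was not tested.

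The 1394 shared peaks lay at the starts of more protein-coding genes than the 407 optimal peaks. A shared summit lay within 500 bp of a start of 461 of 19973 protein-coding genes (2.31%), an optimal summit at 187 (0.936%), and 32 genes had both. Without the condition on replicate 1 the number of genes at a peak was 1456, and without that on replicate 2 it was 1571. In the class with a protein-coding start only, shared summits had a median of 21 bp upstream of the start, with 238 of 443 upstream, against a median of 152 bp upstream and 80 of 117 in the optimal set. Among the strongest shared peaks at starts were those of nasp-2, which encodes a histone chaperone (pooled signal 90.2, ranks 1960 and 462), vav-1, a guanine nucleotide exchange factor (90.2, ranks 732 and 1410), and set-4, a histone H4 methyltransferase (90.1, ranks 766 and 1079). The peak upstream of ltah-1.2 (90.0) had nearly the same rank in each replicate, 561 and 566.

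Genes of the cytosolic ribosome had the highest share of the 30 lists. Of 84 genes of cytosolic ribosomal proteins and their partners, 27 (32.1%, interval 22.4 to 43.2) had a shared peak at a start, 18 an optimal peak, 6 both and 39 either (46.4%), beside 2.31% of all protein-coding genes with a shared peak. Strong examples were rpl-36 (pooled signal 86.4, ranks 466 and 3646), rpl-3 (83.7, ranks 244 and 4253), rpl-12 (83.6, ranks 986 and 695), rpl-39 (82.8, ranks 557 and 256), rps-11 (82.7, ranks 2432 and 362) and rps-14 (82.7, ranks 316 and 2893). Ranks of the replicates were close for rpl-12 and far apart for rpl-36 and rpl-3. Of the 27 genes, 5 had their strongest shared peak in the snoRNA class, among them rpl-4 and rack-1. Mitochondrial ribosomal proteins gave 1 of 71, mrpl-9.

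Several lists of cell machinery had shares above that of all genes, and aminoacyl tRNA synthetases had none of 31. Chaperones and chaperonins had 9 of 69 (13.0%), among them hsp-1, the constitutive HSP70 (87.6, ranks 1682 and 237), and hsp-6, its mitochondrial relative (59.3, ranks 2250 and 217). None of the 9 had an optimal peak as well, beside 32 of the 461 protein-coding genes with a shared peak. So few genes say little about such overlap. Proteasome subunits had 4 of 33, pas-4, pbs-5, rpn-11 and pbs-6, pas-4 sharing its peaks with rpb-3. They had no optimal peak, which only 0.936% of all protein-coding genes had. The secretory pathway had 5 of 38, among them sec-61.A of the translocon (80.3, ranks 1389 and 501) and copz-1 of the coat of Golgi vesicles (78.4, ranks 1282 and 2337). Translation factors had 4 of 45, with iff-2 the strongest (87.5, ranks 634 and 4068), and splicing factors 5 of 64, with rsp-6, an SR protein, the strongest (89.4, ranks 339 and 591). Oxidative phosphorylation had 4 of 52. Among RNA polymerase subunits 2 of 23 had a shared peak, rpb-3 and ama-1, the latter the large subunit of RNA polymerase II. Histone genes had 7 of 83, of which his-1 with his-2, his-59 with his-60 and his-67 with his-68 share a peak, and near-identical histone copies make single genes uncertain.

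Lists for tissues and regulatory families were mixed. Germline and meiosis genes had 5 of 33 (15.2%, interval 5.11 to 31.9) and no optimal peak, which only 0.936% of all protein-coding genes had. The 5 were pgl-1, a P granule component (88.3, ranks 3168 and 173), syp-2 and syp-3 of the synaptonemal complex, him-3 of the chromosome axis and gld-1, a translational repressor. Intestine markers had 2 of 14, the peptide transporter gene pept-1 (84.4, ranks 650 and 1143) and asp-1. Neuron markers had 1 of 22, unc-31, a gene of dense core vesicle release, whose peak was classed at an snRNA gene. Cuticle collagens had 8 of 175, led by sqt-3 (89.6, ranks 896 and 698). Hypodermis, body wall muscle and pharynx markers had none of 14, 18 and 10, which allows shares of up to 23.2%, 18.5% and 30.8%. Homeobox genes had 1 of 89 (ttx-1) and nuclear hormone receptors 2 of 274 (nhr-8 and daf-12). Among other families, chemoreceptors had 5 of 1365, C-type lectins 2 of 240, and none of 355 F-box genes, 185 detoxification genes or 53 sperm protein genes. The intervals for chemoreceptors, F-box genes and detoxification genes lay below the 2.31% of all protein-coding genes. Those for C-type lectins, sperm protein genes, homeobox genes and nuclear hormone receptors included it, so these lists cannot be told from all genes. None of the 6 Sp and Krüppel-like genes had a shared peak at a start. The plot of gene lists gives all 30.

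**Figure D4:**
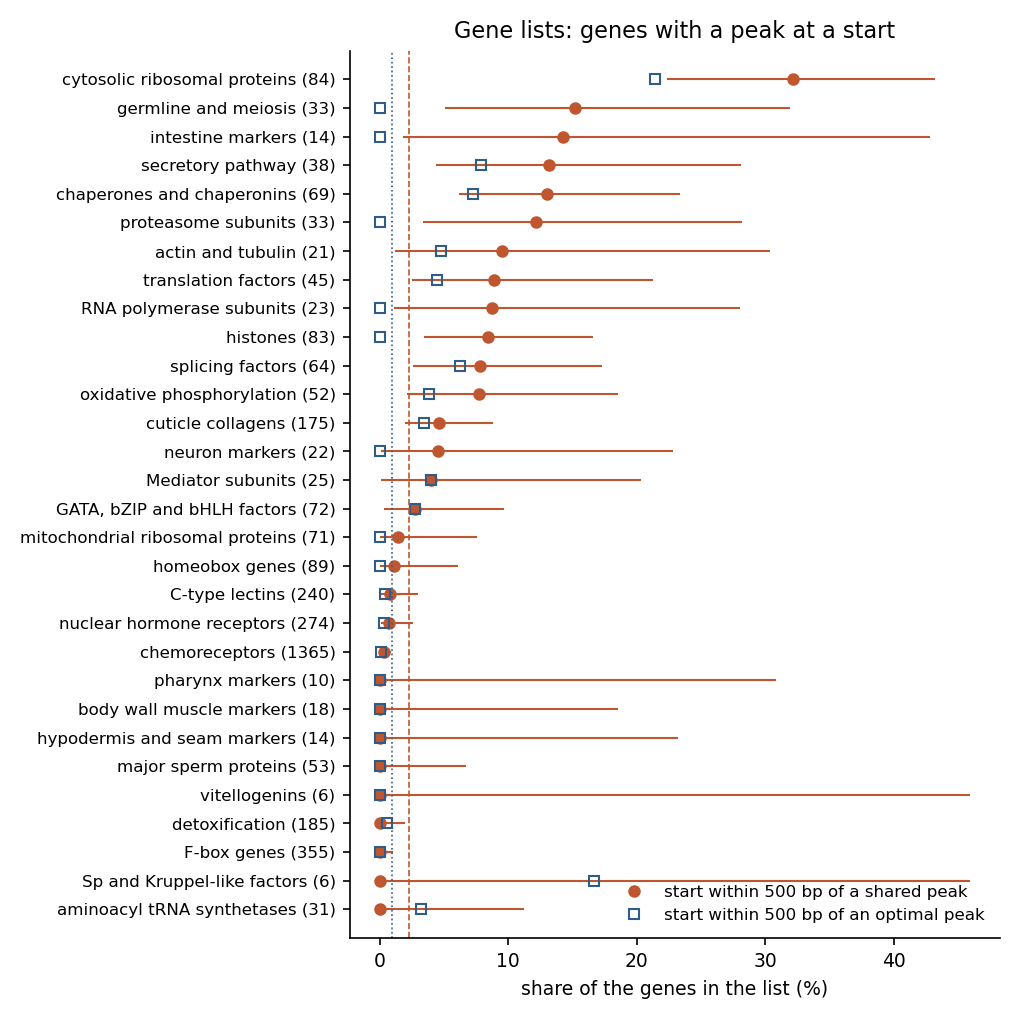
Share of the genes of each list (number of genes in brackets) with a shared summit (filled circles, lines the exact 95% interval) or an optimal summit (open squares) within 500 bp of a start; the dashed and dotted lines mark 2.31% and 0.936% of all protein-coding genes. Cytosolic ribosomal proteins are farthest to the right with 32.1% and 21.4%.

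Shared peaks were also counted inside genes. A shared summit lay between the ends of 685 protein-coding genes (3.43%), a count that includes summits near starts. Of all protein-coding genes, 282 (1.41%) held a peak of the exon class, which by construction is over 500 bp from every protein-coding start. Of the 338 exon peaks 285 (84.3%) were in coding sequence and 51 (15.1%) in 3′ UTRs. Longer genes offer more room for such peaks, and lengths were not adjusted for. The strongest were at rpl-22 (89.9, ranks 4696 and 166), bed-2 (89.7, ranks 572 and 486), the collagen gene col-183 (88.6, ranks 1452 and 509), R07E3.1 (88.3, ranks 933 and 1049) and the diacylglycerol kinase gene dgk-4 (87.8, ranks 522 and 1279). At rpl-22 the replicates were far apart and at bed-2 and R07E3.1 close.

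By list, counts of exon peaks were made after seeing the data. They fell at 14 of 175 cuticle collagens, among them rol-6 and dpy-17, which shape the body, and at 6 of 33 germline genes, namely pgl-1, gld-1, glh-1, csr-1, prg-1 and oma-1. Body wall muscle markers had 3 of 18 (unc-54, unc-60 and unc-89), Mediator subunits 3 of 25 (dpy-22, mdt-15 and mdt-26) and vitellogenins, the yolk proteins, 2 of 6 (vit-2 and vit-6). These stand beside 1.41% of all protein-coding genes. None was found in mitochondrial ribosomal proteins (of 71), aminoacyl tRNA synthetases (of 31), histones (of 83), actin and tubulin (of 21), Sp and Krüppel-like genes (of 6), F-box genes (of 355), sperm protein genes (of 53), pharynx markers (of 10) or neuron markers (of 22), and chemoreceptors had 1 of 1365. The peak in the myosin gene unc-54 had a pooled signal of 55.9 and ranks of 1518 and 1199, and that in vit-2 a pooled signal of 35.6 and ranks of 309 and 1977.

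Intron peaks were led by lea-1 (89.9, ranks 378 and 1012), pde-4, a cAMP phosphodiesterase gene (89.1, ranks 222 and 2847), the nuclear hormone receptor gene daf-12 (88.0, ranks 262 and 3076), catp-7 (87.7, ranks 675 and 641) and scd-1 (86, ranks 1397 and 407). Some genes held several separate shared regions. There were 5 with 3 such regions, namely lin-14, which times larval development, ncl-1, a repressor of nucleolar size, daf-16, the FOXO factor of insulin signalling, cbd-1 of the eggshell and Y45G5AM.9. Their strongest peaks had pooled signals of 85.7, 80.7, 70.0, 70.4 and 84.0, and ncl-1 alone of the 5 also held an optimal peak. Among sites in none of the other classes the strongest shared peak of all, at V:5667302-5667677, had a pooled signal of 90.4 and ranks of 3482 and 123.

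The windows around shared summits were GC-rich and held Sp family motifs more often than their flanks. Median GC content within 100 bp of the summit was 44.8%, against 37.3% in flanks centred 500 bp away on a randomly drawn side, 46.3% at optimal summits and 40.8% in the rest. The GC box core occurred in 134 of 1394 windows (9.61%, interval 8.12 to 11.3), against 3.37% of flanks, 12.3% of optimal windows, 5.16% of the rest and 5.01% of windows at all 29304 protein-coding starts. Shared and optimal windows did not differ detectably, with a ratio of 0.782 (adjusted p = 0.170, Fisher's exact test), although with 10000 peaks of each replicate admitted the ratio was 0.670 (adjusted p = 0.0146, same test). Without the condition on replicate 1 it was 0.575 (adjusted p = 0.000603, Fisher's exact test) and without that on replicate 2 it was 0.579 (adjusted p = 0.000637), whereas within 50 bp of the summit the ratio was 1.07 (adjusted p = 0.899). The CACC box core was found in 22.9% of shared windows and 12.7% of flanks, and the GA repeat in 20.8% and 11.6%. The worm splice acceptor TTTCAG went the other way, with 25% and 35.0%, and so did the TATA box (13.1% and 19.7%). The control hexamer CGATCG was in 3.37% of shared windows and 2.37% of flanks. Motif counts follow base composition in part, and no test against flanks was made.

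By class, the GC box core was in 10.8% of shared peaks with a protein-coding start only and 2.71% of their flanks, in 10.2% and 2.27% for introns, in 12.5% and 2.68% for tRNA genes, and in 4.73% and 3.25% for exons. For snoRNA genes the shares were 9.09% and 6.82%. The exon windows include that of pkg-2 printed above. The B box core stood in 55 of the 112 tRNA windows and 3 of their flanks. Among 1097 hexamers found in at least 100 shared windows, a count made after seeing the data, the GA repeat had the largest excess over flanks in percentage points and the GC box core stood at place 12.

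**Figure D5:**
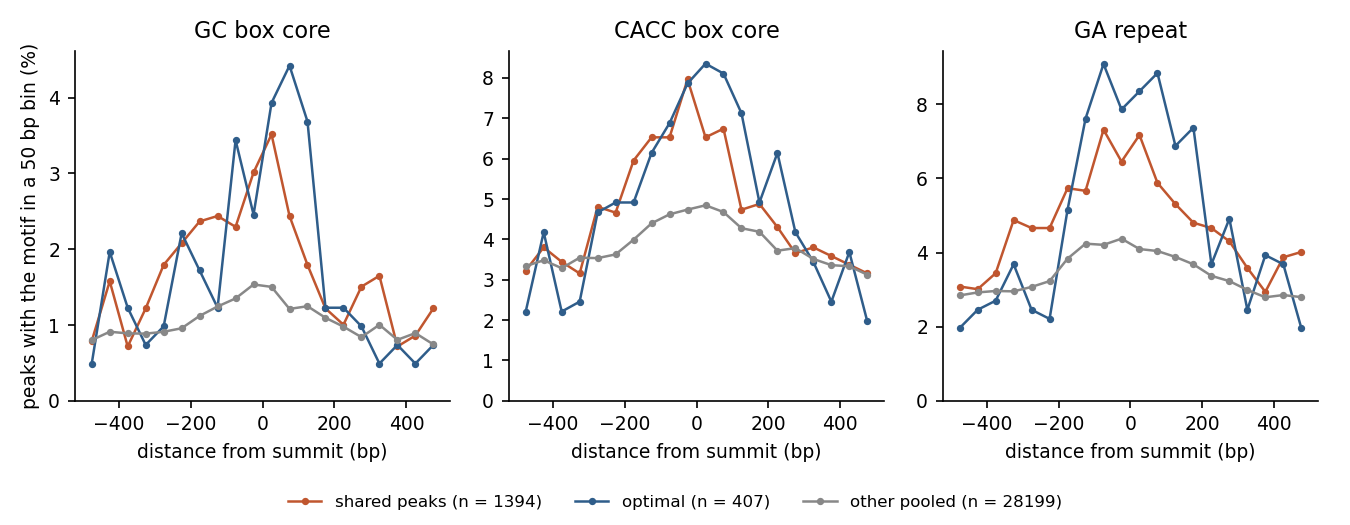
Share of peaks (%) with a motif in each 50 bp bin, by distance of the bin from the summit in bp, for shared peaks, optimal peaks and the rest of the pooled list. In the shared peaks the GC box core reaches 3.52% in the bin next to the summit against 0.789% in the leftmost bin, and the CACC box core and the GA repeat also have their highest values within 100 bp of the summit.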

How the data were processed

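ChIP-seq peak lists in narrowPeak format on assembly ce11 were used: 30000 peaks for each of 2 replicates, 30000 for the pooled reads and 407 in the optimal set. Per the deposited file descriptions, each list was made against a control alignment, and the optimal list came from the replicate and pooled lists by a threshold on the IDR. Aligner and peak caller were not given in the sources used here. Each peak's deposited signal value is a score in arbitrary units, used only to rank and describe peaks within a list. No read totals were used, so the depth is unknown.

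Summits were placed with Ensembl release 115 genes (WBcel235, the same assembly) and sequence with RefSeq, in Python 3.11.15 with pandas 2.3.3, numpy 2.4.6 and scipy 1.17.1. Coordinates are 1-based. tRNA identities came from RefSeq by coordinates for 607 of 612 genes. Shares of 8 classes, the X chromosome and the GC box core were compared between shared and optimal peaks with two-sided Fisher's exact tests, with Benjamini-Hochberg adjustment over these 10 tests at 0.05. Overlapping peaks and peaks of 1 gene are not independent. Gene lists (30) and motifs (11) were only counted. The overlap and test scripts were tested on simulated data. The closing part gives 11 alternatives and 1 added after seeing the data.

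The rule for naming took the 10 strongest shared peaks, the 5 strongest of each class, up to 6 genes of each list, the peaks at each threshold and the genes with the most separate peaks, and not all of these are printed. The mir-35 cluster, mir-58a, WBGene00022971, the peaks in the top of both replicates, the genes in the exon counts by list, the printed windows, the hexamers, the tRNA groups, the rank groups and the same-rank comparison were chosen after their values were seen. The peaks and lists were chosen with earlier results of these data known.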

Additional observations from a re-analysis of the deposited data

How the results depend on the processing

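Of the class ratios of shared to optimal peaks, tRNA (0.127 to 0.425), snoRNA (0.0948 to 0.295) and exon (3.48 to 5.12) kept their direction and stayed past the threshold under all 11 of their alternatives. With the 2500 strongest peaks of each replicate there were 534 shared peaks at 195 protein-coding genes, 14.2% within 1000 bp of an optimal summit and 21% in the top 1000 of both replicates, and the snRNA ratio (0.490, adjusted p = 0.153 by Fisher's exact test, as throughout) and intron ratio (1.58, 0.0994) lost the threshold. With 10000 there were 3291 at 1053 genes, 3.52% and 3.40%, 20.7% held the CACC box core, and the ratios for other sites (1.35), X (0.783) and the GC box core (0.670) passed it. Requiring an overlap of 50% gave 2.98%, 5.74% and a ratio for other sites of 1.43, which passed. In the stronger 50% were 697 peaks at 290 genes, 2.87% near an optimal summit, with an other ratio of 1.41 that passed. Over 1000 bp from optimal summits the values were 4.30% in the top 1000 of both, 1.35 for other sites, which passed, and 0.939 for miRNA genes, a direction opposite to the 1.07 reported. Windows of 250 bp gave 260 genes and a miRNA ratio of 0.876, also opposite. Windows of 1000 bp gave 791 genes and ratios of 1.32 (protein-coding start only) and 1.72 (other) that passed. Motifs sought within 50 bp of the summit gave 13.4% with the CACC box core and a GC box ratio of 1.07, opposite to the 0.782 reported. Without overlapped peaks, added after seeing the data, the values were 1.55% near an optimal summit, 4.45% in the top 1000 of both and 1.37 for other sites, which passed.

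Asking for a match without replicate 1 or without replicate 2 gave 4984 and 5103 peaks at 1456 and 1571 genes, 2.37% and 2.57% near an optimal summit, 2.25% and 2.19% in the top 1000 of both, and 20.0% and 19.6% with the CACC box core. Ratios were 1.38 and 1.40 for other sites, 0.765 and 0.817 for X and 0.575 and 0.579 for the GC box core, all past the threshold, and 0.708 and 0.824 for miRNA genes, opposite in direction and not past it. The causes were not tested. No paired analysis was possible because the series has 1 group. Depth is unknown, so it sets no limit that could be stated.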
